A study of Homo sapiens with 6 samples.

Results

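The 10 genes described here are components of the Notch signalling pathway, listed by name and not by their values, of 31122 genes with a row in the deposited count table. They are the receptors NOTCH1, NOTCH2 and NOTCH3, the ligands JAG1, JAG2 and DLL1, the receptor-modifying enzyme LFNG, the nuclear coactivators MAML2 and MAML3, and the target gene HES1. All 10 had a row, and 9 had enough counts to be tested. DLL1 did not. They were followed in MDA-MB-468, an established basal-like breast cancer cell line, by sequencing of polyadenylated RNA. One group was parental cells labelled WT, grown as 3 wells of a single plate. The other was 3 populations labelled GPR52 KO, made with CRISPR-Cas9 and a single guide (sgRNA1) against the orphan receptor gene GPR52. The comparison was designed to ask what loss of GPR52 does to these cells.

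Notch receptors are single-pass membrane proteins that are cut by furin on the way to the cell surface and bind Jagged or Delta-like ligands on a neighbouring cell. Binding exposes the receptor to ADAM proteases and then to gamma-secretase, which frees an intracellular domain that enters the nucleus, joins the DNA-binding protein RBPJ and a Mastermind coactivator, and switches on targets such as the HES and HEY repressors. Fringe enzymes, LFNG among them, extend sugars on the receptor's extracellular repeats and change how it responds to Jagged and to Delta-like ligands. In the mammary gland the pathway takes part in the choice between basal and luminal fates. Because ligand binding and proteolysis set the activity of a receptor, its transcript level does not measure signalling.

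The edited gene was examined first. GPR52 had 9, 1 and 0 counts in the parental libraries and 645, 694 and 724 in those labelled KO, or 0.112 ± 0.161 against 24.9 ± 0.833 CPM (counts scaled to a common library size; SD, n = 3 each). A higher transcript under the KO label is the opposite of lost expression. Frameshifting edits can leave RNA in place, but why the level was higher was not tested. Whether the labels are right cannot be told from these values. The groups are therefore called parental-labelled and KO-labelled, and higher or lower always means in KO-labelled compared with parental-labelled libraries, whatever their GPR52 state. KO-labelled 1, 2 and 3 are the populations titled 11, 12 and OG. What these titles stand for, and whether each population is a clone or a pool, is not stated in the labels, cells with a non-targeting guide were not analysed here, and time in culture and selection cannot be told apart from the edit. Because the parental-labelled libraries were wells of a single plate, the spread behind the p-values may be technical in that group.

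Libraries held 25637794 to 31692454 counts, so that 1 count was worth 0.0321 to 0.0397 CPM. Among basal epithelial markers, KRT5 stood at 1201 ± 49.2 CPM in parental-labelled and 1707 ± 338 CPM in KO-labelled libraries. It was called higher (log2 fold change 0.51, edgeR adjusted p 0.0154), though 2 of the alternative fits did not call it. KRT14 was low, at 5.90 ± 0.260 and 21.9 ± 7.72 CPM (log2 fold change 1.90, edgeR adjusted p 0.00062). KRT6A, KRT17 and EGFR were not called (edgeR adjusted p 0.884, 0.895 and 0.443). The basal markers summed to 6202 to 6504 CPM and 6180 to 9860 CPM in the 2 groups, mostly EGFR. The epithelial markers summed to 5139 to 5657 and 4352 to 5083 CPM, with EPCAM called higher, CDH1 and KRT18 lower, and KRT8 and KRT19 not called. The luminal hormone receptor markers summed to 223 to 224 and 160 to 210.1 CPM, mostly ERBB2, which was not called (log2 fold change -0.12, edgeR adjusted p 0.328). ESR1 and FOXA1 were called lower (log2 fold changes -1.75 and -0.52, edgeR adjusted p 0.00102 and 0.0141), though limma on FPKM did not call ESR1 (adjusted p 0.305 and 0.284). The part of these marker differences in the Notch values was not tested. Of the fibroblast markers with a row, 4 of 5 stayed under 1 CPM in both groups, and the list's sum, 6.63 to 8.42 against 23.8 to 28.0 CPM, was mostly COL1A1, called higher (log2 fold change 1.80, edgeR adjusted p 3.2e-05). The endothelial markers summed to 3.86 to 4.29 and 3.29 to 7.46 CPM. The highest sum was that of KO-labelled 3, with 6.53 CPM of KDR, which was not called (edgeR adjusted p 0.146). CDH5 was called lower (log2 fold change -1.38, edgeR adjusted p 0.0043). The leukocyte sum of 27.3 to 37.1 against 2.46 to 4.07 CPM was mostly CD14, called lower (log2 fold change -3.15, edgeR adjusted p 2.58e-05), while PTPRC, CD3E and LYZ were at or near 0. KO-labelled 3 stood apart: counts differed from those of KO-labelled 1 and 2 by a chi-square per gene of 42.6 and 38.7, against 14.2 between those 2 libraries and at most 5.81 between parental-labelled libraries.

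Of the 9 members tested, 4 changed. LFNG rose, and NOTCH2, JAG2 and MAML3 fell (edgeR quasi-likelihood test, Benjamini-Hochberg adjusted over 17420 genes, threshold 0.05). The same test called 40.8% of all genes, 21.0% higher and 19.8% lower, so 4 of 9 is close to that background and says nothing particular about the Notch genes. The groups did not overlap for the same 4 members, against 54.4% of all genes. The median log2 fold change of the 9 members was -0.13 and their median absolute value 0.14, beside 0.01 and 0.32 for all genes tested, and no tested member was called with a change of more than 2-fold, against 12.1% of all genes. In bulk RNA, fewer cells with a transcript and less of it per cell cannot be told apart. Beyond the direction of single members, the results differed in how evenly the 3 KO-labelled populations moved, as the plot of CPM by library shows.

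**Figure D1:**
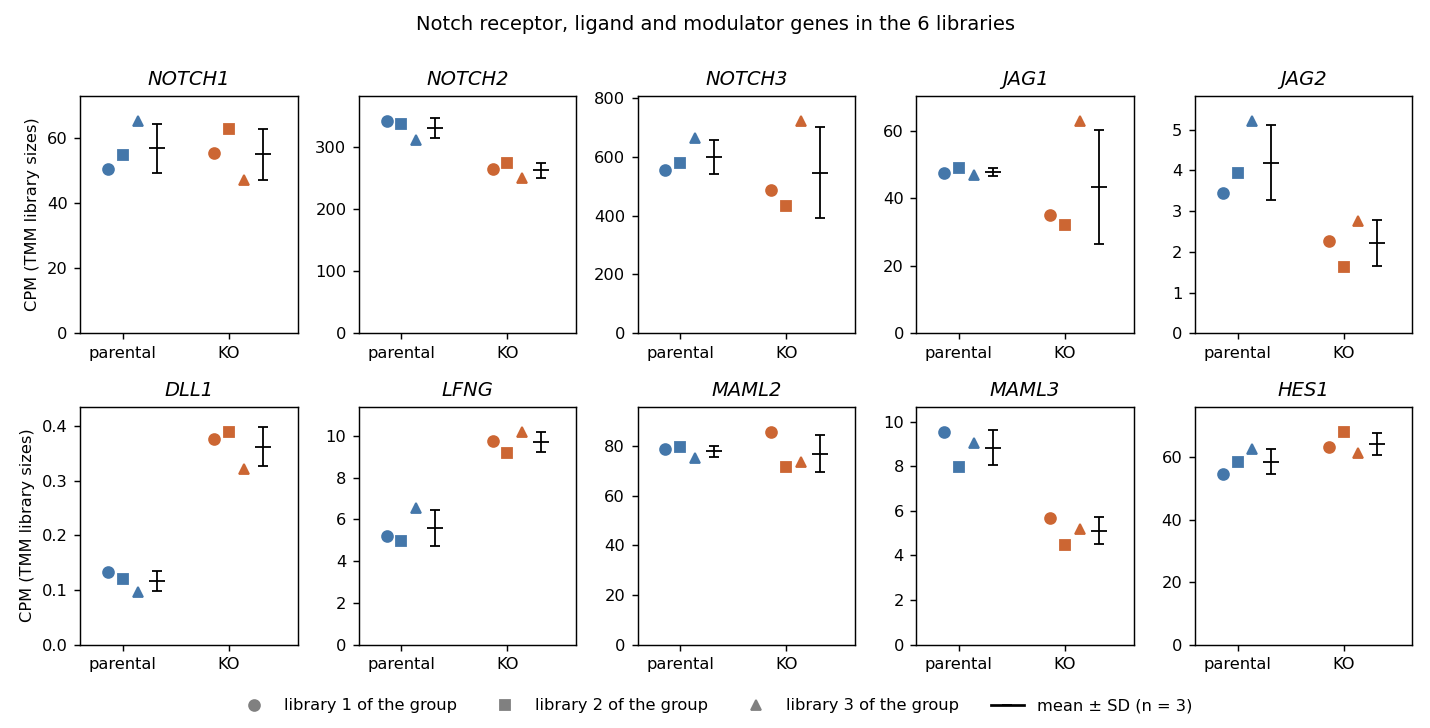
Level of each of the 10 Notch genes in CPM on linear axes from 0, 1 panel a gene, with 1 point per library (its shape gives the library's number in the group) and the group mean ± SD (n = 3) beside the points. JAG1 and NOTCH3 show KO-labelled 1 and 2 below, and KO-labelled 3 above, the parental-labelled libraries, while LFNG, NOTCH2, JAG2 and MAML3 are separated between groups.

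Among the receptors, NOTCH3 was the most abundant transcript per length, NOTCH2 the next and NOTCH1 far lower, in every library. On the authors' FPKM scale (fragments scaled to transcript length and library size), which allows levels to be compared between genes, parental-labelled libraries had 83.4 ± 7.72 FPKM of NOTCH3, 27.3 ± 1.51 of NOTCH2 and 4.95 ± 0.665 of NOTCH1 (SD, n = 3). NOTCH3 made up 71.9 ± 2.34% of the receptors' summed FPKM in parental-labelled and 72.3 ± 5.97% in KO-labelled libraries. NOTCH4, a receptor best known from endothelium, gave 13 counts in parental-labelled and 23 in KO-labelled libraries. Its ratio of scaled counts was 1.85, with an exact 95% binomial interval of 0.898 to 3.97 that covers counting error only.

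NOTCH2 was the receptor that changed. It stood at 341, 337 and 311 CPM in parental-labelled libraries and at 264, 273 and 249.8 CPM in KO-labelled ones. The lowest parental-labelled library lay above the highest KO-labelled one. The change was 1.26-fold lower, a log2 fold change of -0.33 (SE 0.07; edgeR adjusted p 0.00587). NOTCH2NL, which was named after its values were seen because it is a partial copy of NOTCH2 and reads could be shared or lost between them, went from 29.8 ± 5.10 to 22.4 ± 1.43 CPM, a log2 difference of -0.41 (SE 0.13; edgeR adjusted p 0.0385). That call was lost with library totals (adjusted p 0.0596) and without parental-labelled 1 or 2 or KO-labelled 1 or 2 (0.061 to 0.144).

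NOTCH1, the receptor in which activating mutations are best known from T cell leukaemia, did not pass the test. It had 50.5, 54.7 and 65.1 CPM in parental-labelled and 55.1, 62.7 and 46.9 CPM in KO-labelled libraries. These ranges overlapped, and the log2 fold change was -0.05 (SE 0.13, edgeR adjusted p 0.793), which does not show that the groups are equal.

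NOTCH3, known for its role in vascular smooth muscle and also expressed in breast tumours, had 554, 577 and 664 CPM in parental-labelled libraries and 486, 431 and 721 CPM in KO-labelled 1, 2 and 3. The first 2 KO-labelled libraries lay below, and the third above, every parental-labelled library. Over all 6 libraries the log2 fold change was -0.13 (SE 0.18), with an edgeR adjusted p of 0.589. Without KO-labelled 3 it was -0.39, with an edgeR adjusted p of 0.00373. That fit leaves out the library on the other side, and it called 9367 of 17803 genes, against 7105 of 17420 with all libraries.

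Among the 5 Jagged and Delta-like ligands, JAG1 was highest in every library, followed by JAG2 and DLL3, with DLL1 and DLL4 at trace levels. JAG1, the ligand gene mutated in Alagille syndrome, made up 75.6 ± 1.91% of the summed FPKM of those 5 in parental-labelled and 79.8 ± 6.22% in KO-labelled libraries, reaching 87.0% in KO-labelled 3. Its FPKM values are deposited with more digits than those of the other members and may combine several records, so these shares are given with that limit. JAG2 supplied 18.6 ± 1.60% in parental-labelled and 11.0 ± 4.21% in KO-labelled libraries. DLL1 and DLL4, both ligands of the Delta-like type, each had less than 1.5% in every library, and their order changed between libraries. The non-classical ligands DNER and DLK2, named after their values were seen, are outside these shares: DNER had 0.0914 to 0.238 FPKM in parental-labelled libraries and 0.0922, 0.134 and 1.15 FPKM in KO-labelled 1, 2 and 3, and DLK2 0.0471 to 0.118 and 0.752, 0.0912 and 0.204 FPKM. Each was thus high in a single KO-labelled library, DNER above JAG2 there and DLK2 above DLL3.

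JAG1 had 47.5, 49.1 and 46.8 CPM in parental-labelled libraries and 35.0, 32.0 and 62.8 CPM in KO-labelled 1, 2 and 3. The parental-labelled values were close together and, as with NOTCH3, the KO-labelled ones lay on either side of the parental-labelled range. Its log2 fold change was -0.14 (SE 0.23, edgeR adjusted p 0.654). Without KO-labelled 3 it was -0.51, with an edgeR adjusted p of 0.000253. As for NOTCH3, that fit leaves out the library on the other side and called 9367 of 17803 genes.

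JAG2, a ligand best known for limb and T cell development, fell 1.90-fold. It had 3.43, 3.93 and 5.21 CPM in parental-labelled and 2.26, 1.63 and 2.75 CPM in KO-labelled libraries, without overlap. Its log2 fold change was -0.93 (SE 0.24), with an edgeR adjusted p of 0.0162. The call rested on single libraries: the value was -0.74 both without parental-labelled 3, with an adjusted p of 0.0653, and without KO-labelled 2, with 0.0511.

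DLL1, a Delta-like ligand, had 4, 3 and 3 counts in parental-labelled libraries and 10, 11 and 9 in KO-labelled ones. Every KO-labelled library was above every parental-labelled one, but these counts were below the filter, so DLL1 was not among the genes tested with all 6 libraries. The ratio of counts scaled to library size was 3.14, with an exact 95% binomial interval of 1.49 to 7.19. With the filter removed, edgeR gave a log2 fold change of 1.60 and an adjusted p of 0.0201. DLL1 was also tested and called when KO-labelled 3 or any parental-labelled library was left out. It passed the filter in those fits through its KO-labelled counts, so they are not used as support.

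DLL3 and DLL4 complete the Delta-like ligands. DLL3, which acts inside the cell to inhibit Notch, did not pass the test, with a log2 fold change of 0.17 (SE 0.19, edgeR adjusted p 0.519). DLL4, the main Notch ligand of sprouting vessels, had 14 and 17 counts in all and a ratio of 1.27 (interval 0.589 to 2.78).

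**Figure D2:**
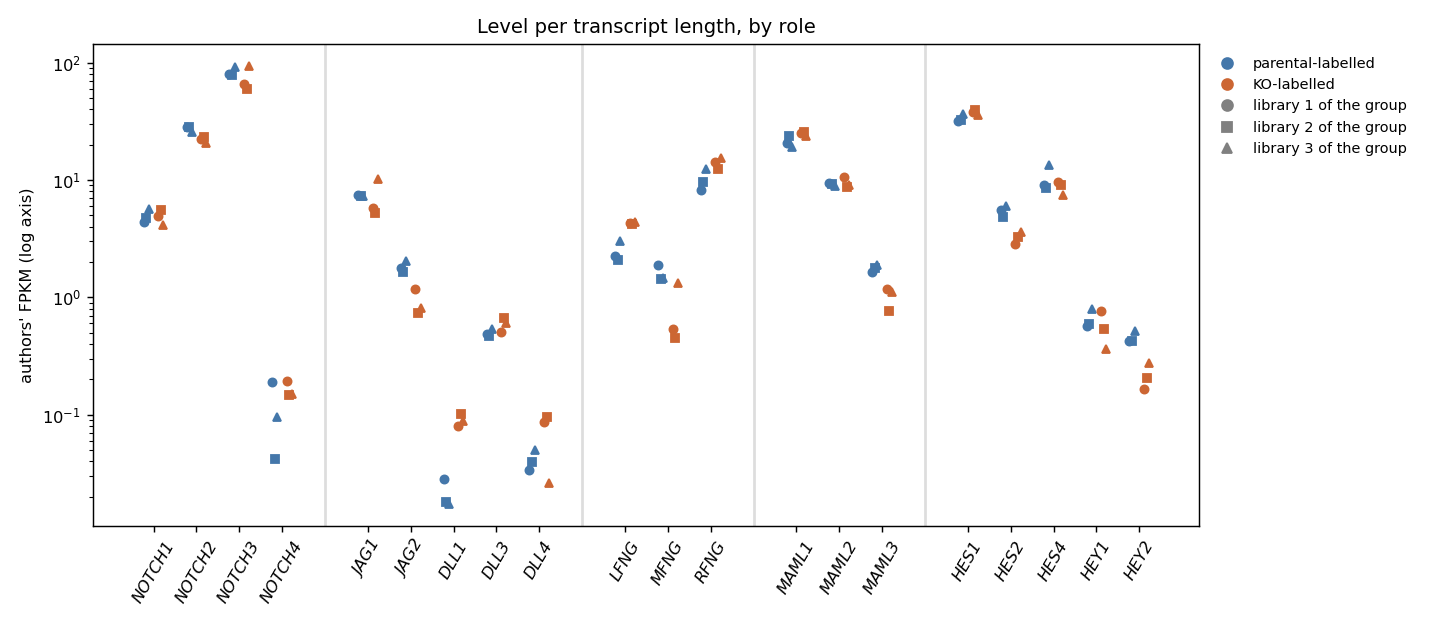
Authors' FPKM of the Notch genes and their paralogs on a log axis, 1 point per library, in blocks of receptors, ligands, fringe enzymes, Mastermind coactivators and HES and HEY targets, with colour for the group and shape for the library. NOTCH3 is highest among the receptors and JAG1 among the ligands in every library, and DLL1 is lowest of the 10 listed genes.

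Of the 3 fringe enzymes, LFNG and RFNG rose and MFNG did not pass the test. LFNG, the lunatic fringe, had 5.21, 4.97 and 6.56 CPM in parental-labelled libraries and 9.76, 9.19 and 10.2 CPM in KO-labelled ones. Every KO-labelled library exceeded every parental-labelled one, and the spread within the KO-labelled group was small. The rise was 1.73-fold (log2 fold change 0.79, SE 0.14; edgeR adjusted p 0.00261). RFNG, the radical fringe, also rose, from 12.7 ± 1.91 to 22.9 ± 0.876 CPM (log2 fold change 0.85, SE 0.12, edgeR adjusted p 0.000976), though limma on the FPKM values gave adjusted p-values of 0.053 and 0.0503.

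MFNG, the manic fringe, had 2.44, 2.50 and 2.15 CPM in parental-labelled libraries and 1.06, 0.955 and 2.82 CPM in KO-labelled 1, 2 and 3, so that KO-labelled 3 again lay above and the other 2 below. Its log2 fold change was -0.55 (SE 0.38, edgeR adjusted p 0.281) over all libraries and -1.23, with an edgeR adjusted p of 0.000928, without KO-labelled 3. The fit without KO-labelled 3 called 9367 of 17803 genes. Limma on log2(FPKM + 1) called MFNG lower with all libraries, at an adjusted p of 0.0428. LFNG supplied 17.3 ± 1.29% of the 3 enzymes' summed FPKM in parental-labelled and 22.6 ± 1.94% in KO-labelled libraries, and RFNG 71.1 ± 4.08% and 73.5 ± 1.24%. MFNG supplied the rest, 11.6 ± 3.42% and 3.90 ± 2.03%.

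NOTCH3, JAG1 and MFNG shared the arrangement in which KO-labelled 1 and 2 lay below, and KO-labelled 3 above, all parental-labelled libraries. The same arrangement held for 4.01% of all genes tested, 698 of 17420. Of the 9 members tested it held for NOTCH3 and JAG1, and of the other pathway genes for MFNG and CTBP2, a corepressor gene. The opposite arrangement, with KO-labelled 1 and 2 above and KO-labelled 3 below, held for NEURL1B, HDAC2 and KAT2B and for 3.68% of all genes. These 4 genes besides MFNG were named after their values were seen. KO-labelled 3 exceeded the mean of the other KO-labelled libraries 1.57-fold for NOTCH3, 1.87-fold for JAG1 and 2.81-fold for MFNG. EGFR, the receptor tyrosine kinase gene abundant in this line, was also highest in that library, at 8307 CPM against 4560 and 4927, and its part in the Notch values was not tested. The SD of log2(CPM + 0.1) for JAG1 was 0.03 in parental-labelled and 0.53 in KO-labelled libraries, against medians of 0.09 and 0.19 over all genes, and for NOTCH2 it was 0.07 and 0.06. Whether KO-labelled 3 differs from the other populations in origin cannot be told from the labels.

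**Figure D3:**
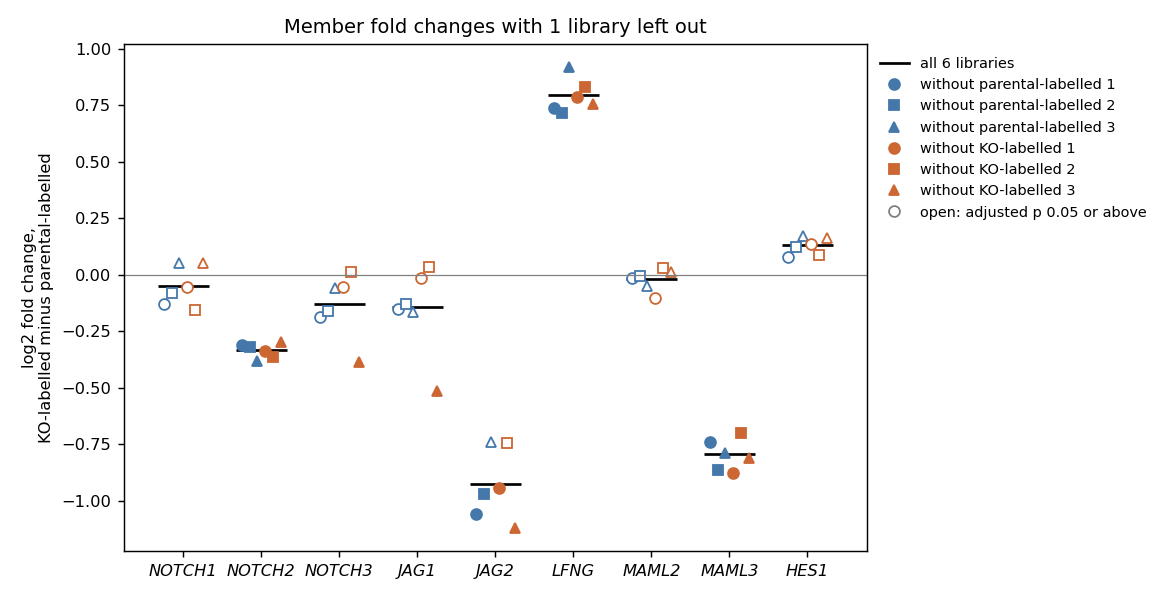
Log2 fold change (KO-labelled minus parental-labelled) of each tested member, with all 6 libraries as a bar and with each library left out in turn as points coloured by the left-out library's group. Filled points have an edgeR adjusted p under 0.05 and open points do not. JAG1 and NOTCH3 pass only when KO-labelled 3 is left out, a fit that calls 9367 of 17803 genes. JAG2 no longer passes when parental-labelled 3 or KO-labelled 2 is left out, and LFNG, NOTCH2 and MAML3 pass in each case. DLL1, under the filter with all 6 libraries, is not plotted.

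The Mastermind genes encode the coactivators that complete the complex of RBPJ and the receptor's intracellular domain. MAML3 fell 1.73-fold, from 9.54, 7.99 and 9.03 CPM to 5.69, 4.46 and 5.21 CPM. The groups did not overlap, and the log2 fold change was -0.79 (SE 0.14, edgeR adjusted p 0.00267). MAML2, known for its fusion to CRTC1 in mucoepidermoid carcinoma, had 78.7, 79.7 and 75.3 CPM against 85.5, 71.7 and 73.6 CPM. Its ranges overlapped, with a log2 fold change of -0.02 (SE 0.08, edgeR adjusted p 0.885).

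Per length, MAML1 was the most abundant of the 3 Mastermind transcripts in every library and MAML3 the least. MAML1 went from 110.5 ± 0.733 to 129.5 ± 5.07 CPM, a log2 fold change of 0.23 (SE 0.06, edgeR adjusted p 0.0204). RBPJ, the DNA-binding partner, went from 79.5 ± 5.23 to 94.0 ± 4.62 CPM, a log2 fold change of 0.24 (SE 0.08, edgeR adjusted p 0.0366). Both calls were near the threshold. Leaving out any 1 parental-labelled library moved MAML1 to adjusted p-values of 0.074 to 0.0933, removing the filter to 0.0568 and limma on FPKM to 0.0956 and 0.0948. For RBPJ, leaving out any library other than KO-labelled 3 gave 0.0528 to 0.139, and removing the filter 0.0834. MAML3 made up 5.54 ± 0.693% of the Mastermind FPKM in parental-labelled and 2.88 ± 0.590% in KO-labelled libraries.

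HES1, a basic helix-loop-helix repressor and the textbook direct Notch target, did not pass the test. It had 54.7, 58.4 and 62.8 CPM in parental-labelled libraries and 63.3, 68.0 and 61.3 CPM in KO-labelled ones. These ranges overlapped (log2 fold change 0.13, SE 0.08; edgeR adjusted p 0.232). HES1 was the most abundant of the HES and HEY transcripts, at 66.6 ± 2.66% of their summed FPKM in parental-labelled and 74.7 ± 0.955% in KO-labelled libraries.

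Promoter sequences are shown for HES1 and for HES4 and HEY2, which hold the same letters. They are RefSeq windows on GRCh38.p14, from 250 bases before to 50 bases after the annotated start, printed 5′ to 3′ on the gene's strand. The build is later than the authors' hg19, and no position was taken from their files. Capitals mark TGGGAA, the core of the RBPJ recognition sequence, or TTCCCA, which is TGGGAA on the other strand. The windows are HES1 at chr3:194135898-194136197 on the plus strand, HES4 at chr1:1000048-1000347 on the minus strand and HEY2 at chr6:125749382-125749681 on the plus strand.
HES1: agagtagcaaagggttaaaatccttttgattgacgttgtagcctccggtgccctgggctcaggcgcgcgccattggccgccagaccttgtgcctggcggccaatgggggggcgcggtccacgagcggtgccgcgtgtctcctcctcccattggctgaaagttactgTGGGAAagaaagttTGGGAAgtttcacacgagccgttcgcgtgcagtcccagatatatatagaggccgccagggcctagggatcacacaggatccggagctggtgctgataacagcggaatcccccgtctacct
HES4: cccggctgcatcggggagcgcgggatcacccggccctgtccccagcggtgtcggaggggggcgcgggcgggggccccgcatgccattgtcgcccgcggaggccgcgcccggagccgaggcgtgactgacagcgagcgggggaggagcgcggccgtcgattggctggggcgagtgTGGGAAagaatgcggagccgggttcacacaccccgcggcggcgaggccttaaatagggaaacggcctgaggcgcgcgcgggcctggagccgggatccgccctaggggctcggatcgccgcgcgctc
HEY2: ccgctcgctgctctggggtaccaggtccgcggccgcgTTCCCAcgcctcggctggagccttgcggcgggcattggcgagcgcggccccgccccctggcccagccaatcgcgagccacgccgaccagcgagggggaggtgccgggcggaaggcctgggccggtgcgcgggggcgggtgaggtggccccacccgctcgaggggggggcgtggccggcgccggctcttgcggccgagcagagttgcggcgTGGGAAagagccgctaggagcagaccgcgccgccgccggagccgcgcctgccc
In HES1 the matches begin 84 and 70 bases before the start. HES4 has a match beginning 76 bases before its start. HEY2 has one on the other strand beginning 213 bases before, and another beginning 3 bases before. A search on both strands for TGGGAA found it in 8439 of 35116 RefSeq windows of this length (24.0%), and GTGGGAA, the longer form that overlaps it, in 2194 (6.25%). Windows were matched for 9 of the 10 members, and TGGGAA was in those of HES1 and LFNG. Among 59 other pathway genes with a window, 14 held TGGGAA and 7 held GTGGGAA. A gene was counted if any of its windows matched, and some genes have several windows. Counts of genes are therefore not on the same scale as the shares of all windows. Of 9 target genes with a window, HES1 included, 5 held GTGGGAA: HES1, HES4, HES5, HEY2 and HEYL. Such a match is a description of the letters and not evidence of binding in these cells.

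Of the 3 printed genes only HEY2 was called, and a difference between them was not tested. HES4 had 9.27, 9.18 and 13.5 CPM in parental-labelled and 9.42, 8.84 and 7.61 CPM in KO-labelled libraries. Its log2 fold change was -0.31 (SE 0.18, edgeR adjusted p 0.196), so it did not pass the test. HEY2, a repressor related to HES, fell from 1.44 ± 0.176 to 0.663 ± 0.139 CPM, 2.16-fold (log2 fold change -1.11, SE 0.23; edgeR adjusted p 0.00644). HES2 fell from 21.9 ± 0.205 to 12.5 ± 1.68 CPM, a log2 fold change of -0.80 (SE 0.11, edgeR adjusted p 0.000971). HEY1 did not pass, at -0.24 (SE 0.29, edgeR adjusted p 0.54). HES5 and HEYL had too few counts to be tested, 4 against 13 and 1 against 3, with ratios of 3.40 (interval 1.05 to 14.3) and 3.14 (interval 0.252 to 165).

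Calls among other targets went in both directions. NRARP, a feedback inhibitor that binds the Notch complex, rose from 1.77 ± 0.0920 to 2.82 ± 0.444 CPM, a log2 fold change of 0.67 (SE 0.18, edgeR adjusted p 0.0192). This call was lost without any 1 parental-labelled library or without KO-labelled 1, with adjusted p-values of 0.0511 to 0.0796. CCND1, the cyclin D1 gene and a target of many pathways besides Notch, fell from 293 ± 8.16 to 121 ± 24.6 CPM, 2.42-fold (log2 fold change -1.27, SE 0.14, edgeR adjusted p 0.000243). Of the 10 targets tested, HES1 included, 3 were called higher, 3 lower and 4 not, beside 40.8% of all genes called.

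The rest of the pathway was read from 74 further genes grouped by role, of which 73 had a row and 67 were tested. In this wider list 37 genes were called, 26 higher and 11 lower, against 40.8% of all genes, 21.0% higher and 19.8% lower. Their median log2 fold change was 0.17, against 0.01 for all genes, 7 were called with a change of more than 2-fold (12.1% of all genes) and the groups did not overlap for 43 (54.4% of all genes). The list overlaps in function with general transcription and trafficking machinery, and nothing particular to Notch is read from these counts.

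**Figure D4:**
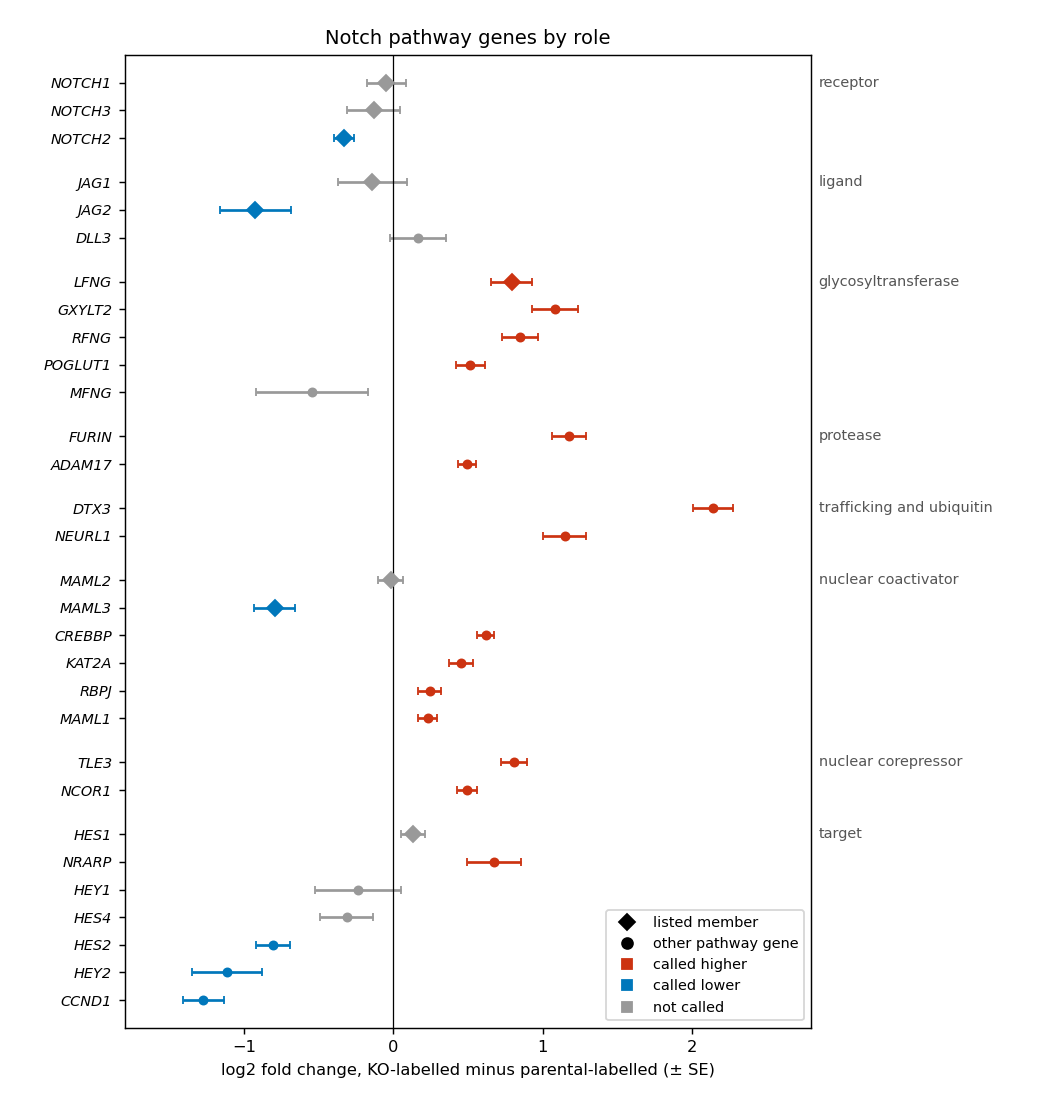
Log2 fold change of the tested members, paralogs and core partners, and of the 2 further called genes per role with the smallest adjusted p. Genes are grouped by role, with the SE as a bar. Diamonds are listed members and circles other pathway genes, coloured by edgeR call. Among the genes plotted, DTX3 lies highest at 2.14 and CCND1 lowest at -1.27. Genes named after their values were seen are not plotted, DTX1 among them, whose fitted value rests on 3 parental-labelled counts. The 5 proteases and gamma-secretase subunits that fell are also absent, so that block shows only genes that rose. FBXW7, CIR1 and TLE1, which fell, are absent too, so the trafficking and corepressor blocks likewise show only genes that rose.

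Of the 9 glycosyltransferases, LFNG included, 5 rose and none fell, beside 21.0% of all genes called higher and 19.8% lower. Besides LFNG and RFNG, POGLUT1, which adds glucose to Notch repeats, rose from 15.5 ± 0.381 to 22.1 ± 1.88 CPM (log2 fold change 0.52, SE 0.09, edgeR adjusted p 0.00352). GXYLT2, which extends that glucose with xylose, rose from 3.35 ± 0.162 to 7.12 ± 1.04 CPM, a log2 fold change of 1.09 (SE 0.15, edgeR adjusted p 0.000985).

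Of the 9 proteases and gamma-secretase subunits, 2 rose and 5 fell, beside the same 21.0% and 19.8% of all genes. FURIN, the convertase that makes the first cut of the receptor, rose from 27.2 ± 2.94 to 61.4 ± 6.51 CPM, 2.26-fold (log2 fold change 1.18, SE 0.11, edgeR adjusted p 0.00015). ADAM17, which can make the cut outside the membrane, rose from 120.9 ± 3.56 to 170.6 ± 1.999 CPM (log2 fold change 0.50, SE 0.06, edgeR adjusted p 0.000463). The 5 that fell, named after their values were seen, were ADAM10, the other protease of that cut, with a log2 fold change of -0.40 (edgeR adjusted p 0.00155), and 4 gamma-secretase subunits. NCSTN, which holds the substrate, fell from 129.3 ± 1.14 to 80.2 ± 9.73 CPM, at a log2 fold change of -0.69 (SE 0.09, edgeR adjusted p 0.000771). PSEN2, PSENEN and APH1A had log2 fold changes of -0.65, -0.59 and -0.30 (edgeR adjusted p 0.00167, 0.00163 and 0.00704). For ADAM10, limma on FPKM gave no call (adjusted p 0.15).

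Of the 17 genes for trafficking and ubiquitin transfer, 6 rose and 1 fell, so that 7 of 17 were called beside 40.8% of all genes. DTX3, a member of the Deltex family of ubiquitin ligases, rose from 3.16 ± 0.363 to 14.0 ± 1.10 CPM, 4.42-fold (log2 fold change 2.14, SE 0.13, edgeR adjusted p 2.04e-05). NEURL1, which promotes ligand uptake, rose from 8.60 ± 0.406 to 19.1 ± 3.52 CPM (log2 fold change 1.15, SE 0.14, edgeR adjusted p 0.000556). DTX1, another Deltex gene and named after its values were seen, had 2, 0 and 1 counts in parental-labelled and 16, 18 and 38 in KO-labelled libraries. The ratio of scaled counts was 25.1 (exact 95% binomial interval 8.25 to 124.5, for counting error only). DTX1 passed the filter only through the KO-labelled libraries, where it is high, so its edgeR call is not used as support. That call is still counted among the 6 that rose and the 7 further pathway genes changed more than 2-fold. The gene that fell was FBXW7, named after its values were seen, which marks the intracellular domain for degradation: it went from 45.9 ± 1.61 to 29.0 ± 2.30 CPM, at a log2 fold change of -0.66 (SE 0.08, edgeR adjusted p 0.000611), and limma on FPKM did not call it (adjusted p 0.0708 and 0.0672).

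Nuclear partners were read in the same way. Of 7 coactivators besides MAML2 and MAML3, 4 rose and none fell, RBPJ and MAML1 among them, beside 21.0% of all genes called higher and 19.8% lower. CREBBP, an acetyltransferase, went from 107.9 ± 1.70 to 165.7 ± 2.24 CPM (log2 fold change 0.62, SE 0.06, edgeR adjusted p 0.000141), and KAT2A, another, from 42.7 ± 2.94 to 58.4 ± 2.72 CPM (0.45, SE 0.08, edgeR adjusted p 0.00302). Of 15 corepressors 7 rose and 2 fell, beside those same shares. TLE3, a Groucho-type corepressor that works with HES proteins, rose from 276 ± 15.1 to 484 ± 48.4 CPM (log2 fold change 0.81, SE 0.09, edgeR adjusted p 0.000262). NCOR1, part of the complex that keeps RBPJ targets off, rose from 115.2 ± 4.29 to 162 ± 5.87 CPM (0.49, SE 0.07, edgeR adjusted p 0.000698). The 2 that fell, named after their values were seen, were CIR1 and TLE1, the latter of the same family as TLE3. Their log2 fold changes were -0.67 and -0.35 (edgeR adjusted p 0.0113 and 0.013).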

How the data were processed

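RNA from 6 libraries (3 labelled WT, 3 labelled GPR52 KO) was extracted with Trizol and a column kit and made into directional poly(A) libraries, per the labels' protocols. The authors deposited whole-number counts per gene symbol and FPKM values, which they scaled for transcript length and depth. Cufflinks 2.0.2, SAMtools 0.1.19, STAR 2.4.0f1 and the build hg19 are listed in the submitters' processing notes, without roles. The counter, strand setting and annotation were not given in the sources used here, so overlapping, antisense and near-copy genes may be miscounted.

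Counts were filtered with filterByExpr (minimum count 10, minimum total 15), TMM-scaled and compared by edgeR 4.0.16's quasi-likelihood F test (R 4.3.3) (current, not legacy, form), over all 6 libraries with no covariate. P-values were adjusted by Benjamini-Hochberg over 17420 genes, with a threshold of 0.05. The SE is the log2 fold change's size divided by the square root of F. CPM use TMM library sizes, and SDs are over libraries. Genes under the filter are given as ratios of scaled counts with exact 95% binomial intervals, for counting error only. The edgeR steps were tested on simulated data with equal spread in both groups. Here the KO-labelled libraries varied more, so that test does not measure the error of these p-values.

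The 10 members and the list of 84 pathway genes were chosen with earlier results of these data known. Named were the members, their paralogs and core partners, GPR52, and the 2 further called genes per role with the smallest adjusted p. The cell type markers, and the genes so marked in the text, fall outside that rule. DLK1 was not analysed here, and 1 further pathway gene and 1 marker are not reported here by name. Promoters came from RefSeq.

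Alternatives were DESeq2 size factors, library totals, no filter, a filter of 10 CPM in 3 libraries, DESeq2 1.42.0, limma 3.58.1 (voom, and log2(FPKM + 1) and log2(FPKM + 0.1)), leaving out each library and, added after seeing the data, edgeR's legacy robust fit.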

Additional observations from a re-analysis of the deposited data

How the results depend on the processing

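The count of called members stayed at 4 with DESeq2 size factors, library totals, DESeq2, limma voom, both FPKM fits and edgeR's legacy robust fit, and at those settings the 4 were LFNG, NOTCH2, JAG2 and MAML3. It was 5 of 10 tested without a filter, where DLL1 was added, beside 6854 of 31120 genes called. With at least 10 CPM in 3 libraries it was 1 of 6, NOTCH2, beside 4935 of 10373 genes. Leaving out 1 library gave 3 to 7. The highest, 7 of 10 members, came without KO-labelled 3, beside 9367 of 17803 genes called. DLL1 was tested and called in that fit and without any 1 parental-labelled library, having passed the filter through its KO-labelled counts. Without parental-labelled 3, DLL1 was called and JAG2 was not. No called Notch pathway gene named in the text changed sign under the alternatives that tested it, apart from CIR1 and TLE1, which were not followed there. Among members that did not pass, small log2 fold changes changed sign when 1 library was left out. NOTCH1 ranged from -0.155 (without KO-labelled 2) to 0.0510 (without KO-labelled 3), NOTCH3 from -0.386 (without KO-labelled 3) to 0.0121 (without KO-labelled 2), JAG1 from -0.514 to 0.0348 (the same libraries) and MAML2 from -0.103 (without KO-labelled 1) to 0.0302 (without KO-labelled 2). MAML2 was also positive with library totals, 0.0264, and with limma on log2(FPKM + 1), 0.0333, and on log2(FPKM + 0.1), 0.0361. The cause was not tested. With 1 library left out, all genes called ranged from 4879 of 17897 (without parental-labelled 2) to 9367 of 17803 (without KO-labelled 3). With all libraries they were 7105 of 17420. No paired analysis was possible because the labels give the groups no shared replicate numbers. Genes at low counts, such as DLL1, HES5 and HEYL, are limited by depth, since 1 count is worth 0.0321 to 0.0397 CPM.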
